A study of Mus musculus with 16 samples.

Results

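Mouse cortical neurons depolarised with KCl for 6 h were compared with neurons of the same kind in the silenced state, at 0 h. The arrays were chosen by their titles, 2 arrays labelled control shRNA at 6 h and 2 labelled control shRNA at 0 h, which are 4 of the 16 arrays of the series. Both groups held neurons from C57BL/6 cortices of embryonic day 16.5, infected on day 5 in vitro, for 6 h and with polybrene at 6 µg per ml, with a lentivirus carrying an shRNA against firefly luciferase. On day 7 the neurons were silenced and either left without KCl or given KCl for 6 h, and each single-colour Affymetrix mouse genome array received 10 µg of labelled cDNA. The virus and the shRNA were therefore present in both groups. How the neurons were silenced, the KCl concentration, the share of infected cells and the promoter that drives the shRNA are not stated in the labels used here. The arrays are numbered as biological replicates with no word on separate dissections, and the p-values then measure only how these arrays vary, which may be technical. The other groups of the series, control shRNA with KCl for 1 or 3 h and an shRNA against c-Fos at 0, 1, 3 and 6 h, entered the estimate of that spread.

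Raised extracellular potassium depolarises neurons and admits calcium through voltage-gated channels. Calcium-dependent kinases then act on transcription factors that are already present, such as CREB, and the first genes they switch on encode further transcription factors and feedback inhibitors of the same signals. Secreted peptides, synaptic proteins and ion channels are encoded by genes of the later wave, and after several hours an mRNA level reflects both synthesis and decay.

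Of 13915 genes tested, 2328 (16.7%) were higher and 3805 (27.3%) were lower at 6 h than at 0 h. Values given for single arrays are the deposited linear intensities, and changes are differences of log2(intensity + 16) after quantile normalization. The threshold of a call was a p under 0.05, adjusted by Benjamini-Hochberg, in limma, a linear model fitted to all genes and all 16 arrays. By at least 2-fold, 619 genes (4.45%) were higher and 780 (5.61%) lower, and the median change over all tested genes was -0.07. Both 6 h arrays lay on the same side of both 0 h arrays in 2326 of the 2328 higher genes and in 3790 of the 3805 lower ones. The calls rest on the same arrays, so this separation is no added support. Over all 13915 tested genes, called or not, both 6 h arrays lay above both 0 h arrays in 3641 and below in 5489. The 2 arrays of a group correlated at 0.992 at 0 h and 0.991 at 6 h across genes. The standard error of the log2 changes of the genes named here was 0.04 to 0.64, with a median of 0.14. Of 166 named genes with several probe sets, 6 had one called in the other direction, and these are given with the gene. Arrays with the same replicate number deviated together, so a fit with that number as a block was also made (the blocked fit). Where the blocked fit changed the call of a named gene, or where it or leaving out 1 array moved a count of at least 5 by over 1.5 times, that value stands beside the result. Smaller counts are given with the blocked count where that differs by over 1.5 times. Every gene list was drawn up with earlier results of these arrays known, so the counts and medians describe the listed genes and are no independent evidence of a direction. Each list count is to be read against 16.7% higher and 27.3% lower of all tested genes. A list near these shares shows no behaviour of its own.

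The cultures carried the markers of neurons, and markers of other cells had few calls without the block. The 12 markers of all neurons had a summed intensity of 105614 and 109778 at 0 h and 112344 and 117184 at 6 h. Among them 3 were higher and 2 lower, or 4 lower in the blocked fit. The neurofilament genes Nefl (1.16) and Nefm (1.08) and the vesicle fusion gene Snap25 (0.31) rose, and the neuronal tubulin gene Tubb3 (-0.75) fell. The summed intensity of the 12 astrocyte markers was 51723 and 59686 at 0 h and 47248 and 52157 at 6 h, lower at 6 h within both pairs of arrays with the same number. Of these markers 1 was lower, Slc1a3 (-0.32), a glutamate transporter gene, but in the blocked fit 8 of the 12 were lower and 1 higher. Only 3 of 12 microglial markers passed the filter on dim genes, and Cd68, a lysosomal glycoprotein gene of macrophages, rose among them from 57.3 and 77.0 to 166 and 215. The summed intensity of these 3 was 241 and 319 at 0 h and 369.8 and 445 at 6 h, and the defining genes Tmem119, Cx3cr1 and C1qa were among the 9 too dim to be tested. None of the 8 tested markers of the oligodendrocyte lineage or the 9 of vascular cells and fibroblasts was called, with summed intensities of 11985 and 19075 at 0 h and 11182 and 18033 at 6 h for the first list. Of 11 progenitor markers 3 were higher and 1 lower, and 4 of 9 excitatory and 4 of 8 inhibitory neuron markers were higher and 0 lower. In the blocked fit 1 oligodendrocyte and 1 vascular marker were higher, 4 progenitor markers were higher and 2 lower, and 5 inhibitory neuron markers were higher and 1 lower. The part of these cells in the results was not tested. In whole cultures fewer cells of a type and less RNA per cell cannot be told apart.

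**Figure D1:**
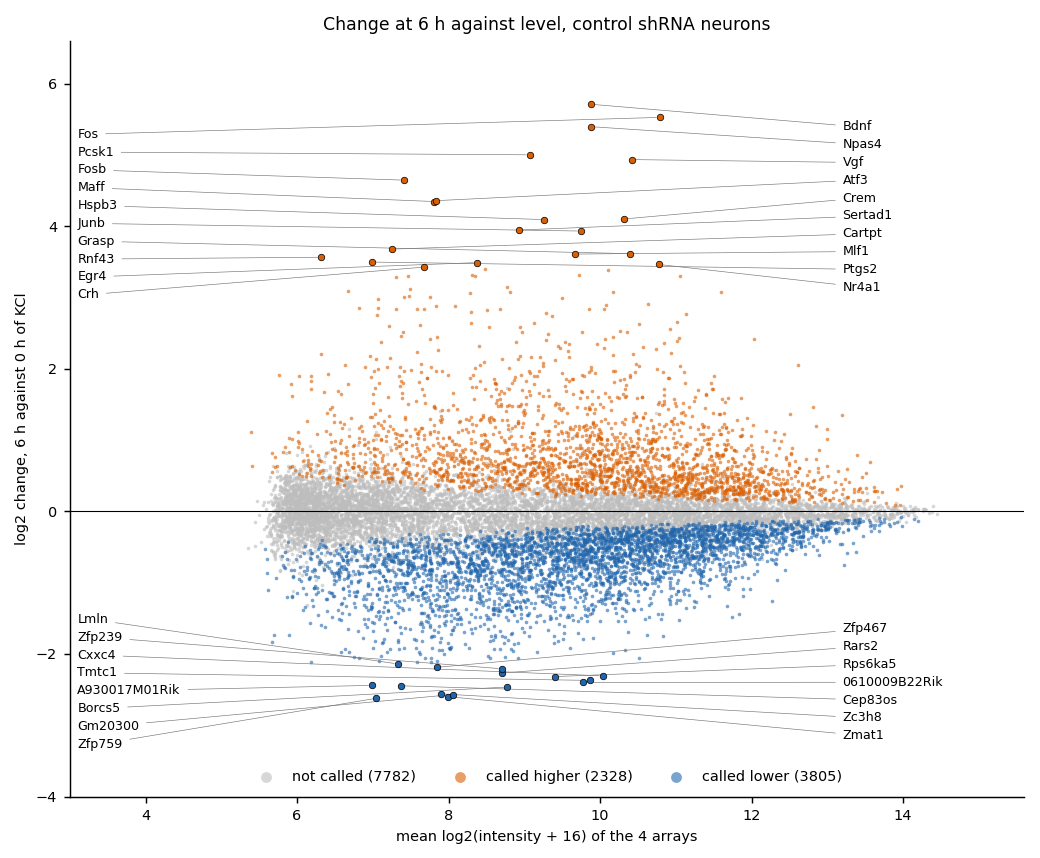
Log2 change at 6 h against 0 h (vertical axis) plotted against the mean log2 level of the 4 arrays (horizontal axis, log2(intensity + 16)) for the 13915 tested genes, with the 2328 genes called higher in orange, the 3805 called lower in blue and the others in grey. The named points are the 20 largest called rises and the 15 largest called falls, and the rises reach farther from 0 than the falls.

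The largest rises belonged to a neurotrophin, to transcription factors and to the secretory pathway. Bdnf, which encodes the neurotrophin that acts on the receptor TrkB, had intensities of 90.7 and 145 at 0 h and 6396 and 7170 at 6 h, a log2 change of 5.71 ± 0.23 (standard error; limma adjusted p = 5.17e-09). Pcsk1, the gene of a convertase that cuts prohormones, had 71.9 and 87.4 at 0 h and 2823 and 3213 at 6 h (5.00 ± 0.15). Vgf, which encodes a precursor of secreted peptides, had 221 and 246 and then 7385 and 7629 (4.93 ± 0.06). In all 3 genes both 6 h arrays lay far above both 0 h arrays. The neuropeptide genes Cartpt (3.68) and Crh (3.43) were also among the 20 largest rises. Crh was uneven between replicates, with 22.6 and 90.3 at 0 h and 439 and 921 at 6 h and a standard error of 0.55, and as for all genes of these 20 separate groups were a condition of the choice.

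Transcription factor genes of the AP-1, EGR, bHLH-PAS and nuclear receptor classes made up another part of the 20. Fos rose from 261 and 232 to 11960 and 11898 (5.52 ± 0.10), Npas4 from 126 and 133 to 6349 and 5753 (5.40 ± 0.09) and Fosb from 23.1 and 14.0 to 1075 and 635 (4.64 ± 0.22). The stress-induced factor gene Atf3 (4.36), the small Maf gene Maff (4.34), the CREB relative Crem (4.10), Junb (3.93), Egr4 (3.49) and the orphan receptor gene Nr4a1 (3.46) were the others, with Sertad1 (3.95), which encodes a transcriptional cofactor. Outside these classes stood Hspb3 (4.09), a small heat shock protein gene, Grasp (3.61), a scaffold gene of metabotropic glutamate receptors, Mlf1 (3.61), the ubiquitin ligase gene Rnf43 (3.56) and Ptgs2 (3.50), which encodes the prostaglandin-forming enzyme COX-2. Hspb3 was at 123 and 146 at 0 h and 2426 and 2553 at 6 h, and Mlf1 at 208 and 231 and 2799 and 2788. All 6 h arrays of these 2 genes lay above all 0 h arrays. Rnf43 had 0 h intensities of 3.14 and 12.7, below the 16 added before taking the logarithm, so its change is understated.

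Among the 20 largest rises, 17 had a promoter in the RefSeq table used here (mouse build GRCm38.p6), which holds 250 bases before to 50 bases after a gene start, and 4 of the 17 contained the full cAMP response element, TGACGTCA, the palindrome bound by CREB. They are shown because the same element stands in the promoters of a convertase, a peptide precursor, a transcription factor gene and a late gene that rose together. The element is in capitals, and its first base lies 78 bases before the start in Pcsk1 (chr13:75089607-75089906, plus strand), 29 in Maff (chr15:79347270-79347569, plus strand, 1 of 3 promoters listed for the gene), 112 in Cartpt (chr13:99900634-99900933, minus strand) and 54 in Mlf1 (chr3:67373847-67374146, plus strand).
Pcsk1: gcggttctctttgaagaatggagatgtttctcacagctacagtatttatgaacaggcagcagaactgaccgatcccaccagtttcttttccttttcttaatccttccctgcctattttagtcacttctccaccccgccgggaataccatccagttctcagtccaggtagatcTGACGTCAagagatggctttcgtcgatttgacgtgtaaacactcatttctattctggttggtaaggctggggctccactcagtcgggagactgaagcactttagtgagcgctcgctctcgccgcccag
Maff: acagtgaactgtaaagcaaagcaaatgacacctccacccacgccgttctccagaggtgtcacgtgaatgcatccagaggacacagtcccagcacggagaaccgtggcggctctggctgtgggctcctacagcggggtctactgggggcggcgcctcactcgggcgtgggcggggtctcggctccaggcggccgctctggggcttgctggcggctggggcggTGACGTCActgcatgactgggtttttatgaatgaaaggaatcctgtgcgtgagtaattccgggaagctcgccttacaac
Cartpt: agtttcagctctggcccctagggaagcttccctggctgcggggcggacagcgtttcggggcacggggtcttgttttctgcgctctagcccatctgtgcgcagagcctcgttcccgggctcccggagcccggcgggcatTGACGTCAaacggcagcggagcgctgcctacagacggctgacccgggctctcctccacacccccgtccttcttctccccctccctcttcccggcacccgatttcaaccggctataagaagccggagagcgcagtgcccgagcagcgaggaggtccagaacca
Mlf1: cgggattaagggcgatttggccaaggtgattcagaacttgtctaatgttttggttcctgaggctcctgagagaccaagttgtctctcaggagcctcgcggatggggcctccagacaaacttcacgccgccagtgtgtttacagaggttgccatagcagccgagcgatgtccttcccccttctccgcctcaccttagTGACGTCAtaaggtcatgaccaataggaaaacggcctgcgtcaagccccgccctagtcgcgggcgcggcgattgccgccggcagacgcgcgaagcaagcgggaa
Vgf, Crem and Crh had no entry.

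Over whole sets of promoters the element was found in 36 of 479 genes higher by at least 2-fold (7.52%, exact 95% interval 5.32% to 10.3%) and in 17 of 660 genes lower by at least 2-fold (2.58%, 1.51% to 4.09%). It was in 377 of 11178 tested genes with a promoter (3.37%) and in 588 of all 32851 promoters (1.79%). Both strands were searched, and a gene counted where any of its listed promoters held the motif. The AP-1 element TGANTCA was found for 6.47% of the higher genes, 5.45% of the lower and 6.22% of all tested genes with a promoter. It was in 7.81% of all promoters. Shares of all promoters count single promoters and the other shares count genes, so the 2 kinds are not alike. A match describes the letters only and was not tested as a binding site.

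The largest falls were of other kinds of genes. Zfp759, a zinc-finger gene, had 313 and 311 at 0 h and 35.8 and 38.8 at 6 h (-2.62 ± 0.17, limma adjusted p = 2.22e-07). Rps6ka5, which encodes the kinase MSK1 that phosphorylates CREB and histone H3 downstream of MAP kinases, had 1649 and 1400 and then 275 and 297 (-2.32 ± 0.11). Rars2, the mitochondrial arginyl-tRNA synthetase gene, had 876 and 934 and then 143 and 207 (-2.27 ± 0.16). The groups of these 3 genes were far apart, and the fall left each at between 0.12 and 0.194 of its mean 0 h intensity. The remaining falls of the first 15 were in the zinc-finger genes Zfp239 (-2.21), Zfp467 (-2.19), Zmat1 (-2.60) and Zc3h8 (-2.56), the lysosome positioning gene Borcs5 (-2.46), Tmtc1 (-2.37), which encodes an O-mannosyltransferase of cadherins, the Wnt inhibitor gene Cxxc4 (-2.31) and the metalloprotease gene Lmln (-2.14). Gm20300, Cep83os, A930017M01Rik and 0610009B22Rik, named by number or position, had changes of -2.57, -2.45, -2.44 and -2.40.

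**Figure D2:**
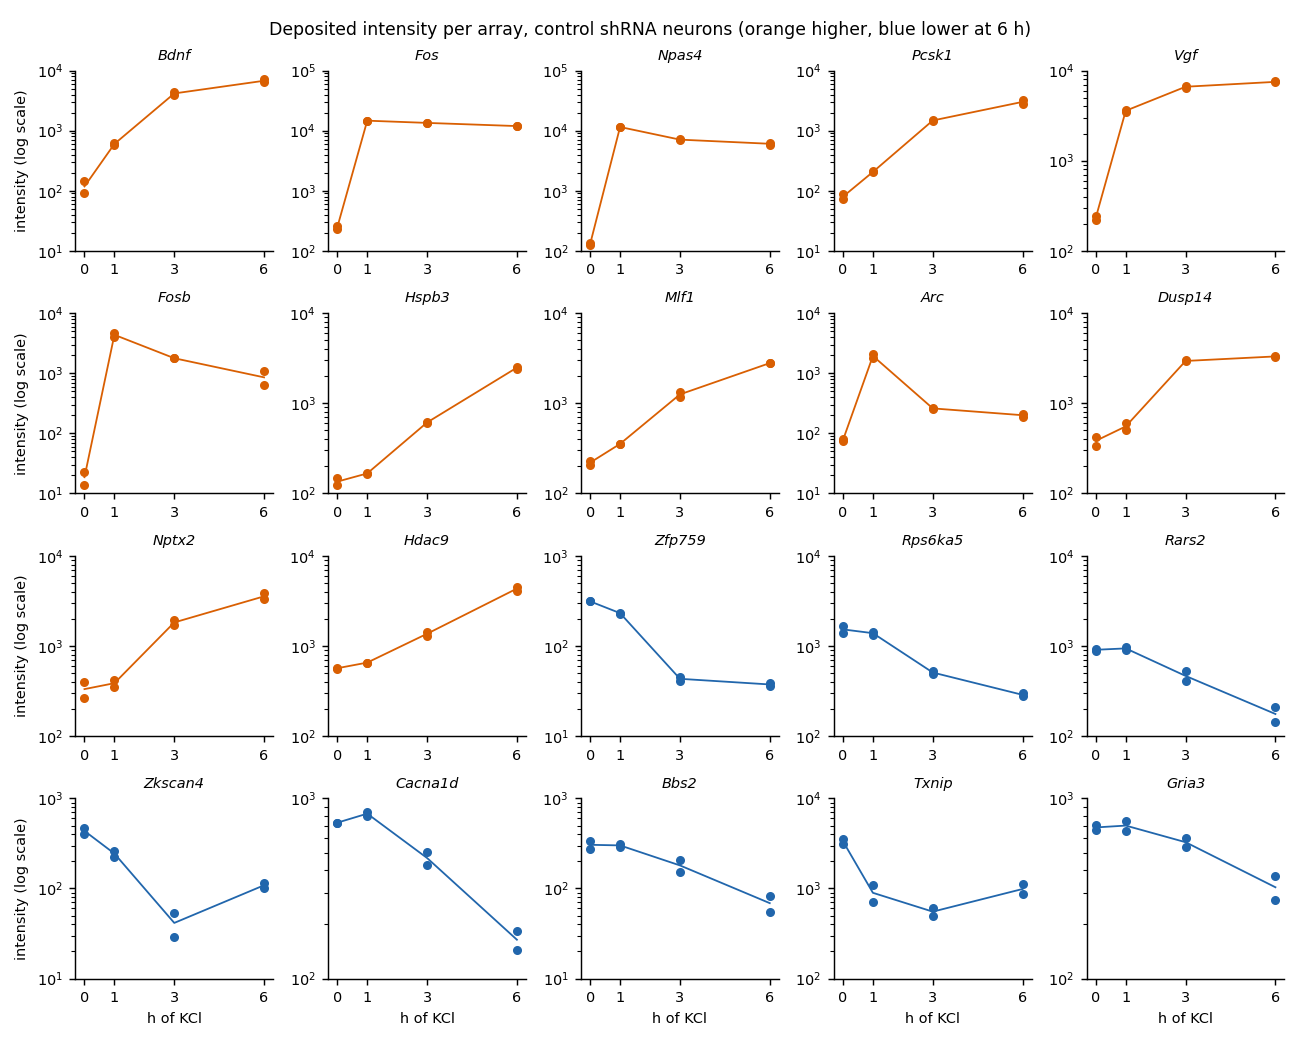
Deposited intensity (vertical axis, log scale) of 12 genes that were higher and 8 that were lower at 6 h, in both arrays of control shRNA neurons at 0, 1, 3 and 6 h of KCl (horizontal axis). Points are arrays and lines join the means of the 2 arrays. Bdnf, Hspb3, Mlf1 and Pcsk1 are highest at 6 h, Npas4, Fosb and Arc at 1 h, and the lower genes reach their lowest levels at 3 or 6 h.

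The early-response transcription factors were still raised after 6 h as a list, with exceptions. Of the 33 listed genes tested, 25 were higher and 1 was lower, against 16.7% and 27.3% of all tested genes, and the median change was 2.17 where all genes had -0.07. Nfil3 (3.31), a bZIP repressor gene, Nr4a3 (3.07), Csrnp1 (3.00), Fosl2 (2.66), Nr4a2 (2.56), Cebpb (2.29) and Klf4 (2.01) were among the higher ones. Egr1 was at 593 and 725 at 0 h, 14685 and 14656 after 1 h and 2288 and 2473 after 6 h, so that its 6 h level was higher than at 0 h (1.85) and lower than at 1 h (-2.61). Jun, the partner of Fos in AP-1, was not called, with 1288 and 1813 at 0 h and 1906 and 2203 at 6 h (0.41), although it was called in the blocked fit (limma adjusted p = 6.38e-05) and without replicate 2 at 0 h (0.65). Klf10 was the member that fell without the block (2 fell with it), from 1420 and 1902 to 606 and 742 (-1.24). Klf2 had a lower value without passing the test (-1.39 ± 0.61), but passed it in the blocked fit (limma adjusted p = 0.0311) and without replicate 1 at 6 h (-2.01).

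Factors that are present before stimulation changed less and in both directions. Among 26 of them 8 were higher and 4 lower, with a median of 0.04. Nfatc2 (1.48), a calcineurin-regulated factor gene, and Mrtfa (1.10), a coactivator of SRF, rose. The ETS factor gene Elk1 (-1.33) and Crtc1 (-0.86), the CREB coactivator, fell, while Creb1 had no call (-0.17; limma adjusted p = 0.046 in the blocked fit and 0.039 without replicate 2 at 0 h). Mrtfa went from 403 and 349.6 to 779 and 786 and Crtc1 from 1229 and 1104 to 581 and 651. At 3 h their changes were 0.20 and -0.26.

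Clock genes were mostly higher where they were called. Of 18 tested, 9 were higher and 1 was lower, or 4 in the blocked fit (median 0.35). The period genes Per1 (2.42, from 426 and 475 to 2333 and 2541) and Per2 (1.87, from 130.1 and 176 to 540.0 and 580.2), which encode repressors of the clock, rose most. Cry1 (1.01) and Cry2 (0.95) encode the partner repressors and Npas2 (0.96), Arntl (0.58) and Clock (0.43) the activators. Dbp, an output gene of the clock, fell (-0.87 ± 0.26), a call that was lost without replicate 2 at 0 h (-0.74) or without replicate 1 at 6 h (-0.65). Among 32 factors of cortical identity 13 were higher and 4 lower, with a median of 0.03. The blocked fit had 15 higher and 12 lower, and the count of higher ones was 7 without replicate 2 at 0 h and 6 without replicate 1 at 6 h. Fezf2, a selector of deep-layer projection neurons, rose from 1545 and 1393 to 5942 and 5384 (1.90), and Pou3f1 by 1.36.

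Most genes that limit MAP kinase signalling were higher. Of 21 phosphatases, Sprouty and Spred genes tested, 16 were higher, 13 of them by at least 2-fold, and 1 was lower (median 1.46). Dusp14 had 339 and 427 at 0 h and 3339 and 3290 at 6 h (3.08 ± 0.17). Dusp6, which removes phosphate from ERK, had 750.2 and 933 and then 3392 and 3516 (2.00 ± 0.09), and Dusp1 had 818 and 956 and 4564 and 4014 (2.23). Dusp4 (2.27), Dusp16 (2.38), Dusp5 (1.90), Spry4 (2.07), Spry1 (1.58) and the EGF receptor inhibitor gene Errfi1 (1.80) rose as well. Dusp2 was the exception, falling from 251 and 227 to 82.3 and 122 (-1.11). Genes of the MAP kinase cascade, a list that also holds Ras activators, were divided. Of 34 tested, 11 were higher and 11 lower, or 6 lower without replicate 2 at 0 h or replicate 1 at 6 h. There the Ras activator gene Rasgrp1 (2.35) rose and Rasgrf2 (-1.16) fell.

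Regulators of G-protein signalling were mostly higher where they were called, and genes of cAMP signals were divided. Of 18 RGS genes, whose products switch off G proteins, 9 were higher and 2 lower. Rgs2 rose from 3194 and 2892 to 12963 and 12874 (2.05 ± 0.06), Rgs4 from 2245 and 3209 to 5962 and 6835 (1.21), and Rgs17 fell (-0.88). In the cAMP list 11 of 40 were higher and 7 lower, with a median of -0.07. The majority turned in the blocked fit, with 12 higher and 14 lower. Of the higher genes 5 reached 2-fold and of the lower 0, and only rises are named here. Gpr3 (2.59), a receptor gene with constitutive activity, and the calcium-stimulated cyclase gene Adcy8 (1.56) rose, as did the CRTC kinase genes Sik1 (1.27), Sik2 (0.91) and Sik3 (1.11). The lower cAMP genes numbered 14 in the blocked fit, 4 without replicate 2 at 0 h and 3 without replicate 1 at 6 h. Calcium signalling had 7 higher and 8 lower of 46, with 17 lower in the blocked fit, 5 lower without replicate 2 at 0 h and 4 higher without replicate 1 at 6 h. Ppp3cc, a catalytic subunit gene of calcineurin, fell from 226 and 235 to 57.1 and 50.6 (-1.81), with another probe set called higher (1.00), and the calcineurin inhibitor Rcan1 (-0.64) fell while Rcan2 (1.01) rose. In the NF-kB pathway the inhibitor-like genes Nfkbiz (2.40) and Nfkbid (1.02) rose, and Ikbkg (-1.44) and Traf2 (-1.38), which carry the signal to the kinase complex, fell.

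Among genes of secreted peptides those that were called all rose. Of 34 tested neuropeptide genes (of 49 listed), 16 were higher, 11 by at least 2-fold, and 0 were lower, with a median of 0.44, so that 18 had no call. Of all tested genes 16.7% were higher and 27.3% lower. Adcyap1, the gene of PACAP, rose from 198 and 298 to 1657 and 1679 (2.74 ± 0.19). Tac1, the precursor of substance P, had 221 and 296 and then 1197 and 1778 (2.49 ± 0.34), and Nppc, the gene of C-type natriuretic peptide, had 40.5 and 48.9 and 333 and 476 (2.84). In each the lower 6 h array was above the higher 0 h array. Prok2 (2.82), Adm (2.75), the nociceptin gene Pnoc (2.13), Stc1 (1.80), the enkephalin gene Penk (1.43), Cort (1.16) and the somatostatin gene Sst (0.79) rose too. Sst, a peptide gene of interneurons, went from 4093 and 3513 to 6710 and 6934, a small change with separate groups. The set of called genes thus included peptides of interneurons and of projection neurons, and in which cells each rose was not measured.

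**Figure D3:**
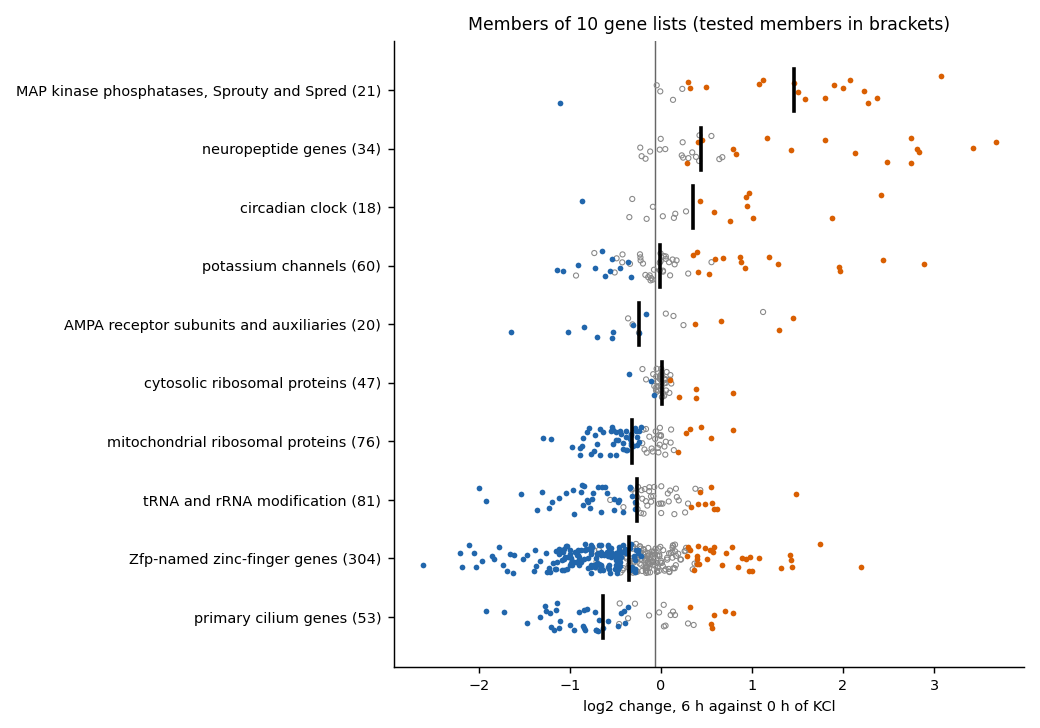
Log2 change at 6 h against 0 h (horizontal axis) of every tested member of 10 gene lists, with filled points for members called by limma and open points for the others. The vertical grey line is the median of all 13915 tested genes, -0.07, and the black tick of each row is the median of its list. The tick lies right of 0 for the signal-limiting, neuropeptide and clock genes and left of 0 for the cilium, mitochondrial ribosome, tRNA and rRNA modification and Zfp-named genes.

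Part of the machinery that processes and stores peptides rose with them. Of 24 granin and processing genes 10 were higher and 2 lower (median 0.19). Without replicate 2 at 6 h 6 were higher, and in the blocked fit 4 were lower. After Pcsk1 and Vgf, the amidating enzyme gene Pam rose from 666 and 702 to 2475 and 2706 (1.91 ± 0.11) and the granin gene Scg2 from 4279 and 4185 to 12286 and 11759 (1.46 ± 0.06). The carboxypeptidase gene Cpe, at 14121 and 15570 and then 14601 and 14592, had no call (-0.03). Ica1 (-0.55), a secretory granule gene, fell.

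Growth factor genes had few called falls. Of 64 tested, 17 were higher (26.6%) and 3 lower (4.69%), with a median of 0.10, against 16.7% and 27.3% of all tested genes. The blocked fit had 24 higher and 9 lower. Ccn2, a matricellular protein gene, rose from 218 and 269 to 1965 and 2056 (3.00 ± 0.15), and Nrn1, which encodes neuritin, from 799 and 965 to 4568 and 4957 (2.39). Tgfb2 (1.69), Igf1 (1.67) and Tgfb3 (1.61) rose as well. Igf1 was at 307 and 309.9 at 3 h and 796 and 658 at 6 h, a step between these times of 1.22. Fgf18 fell from 533 and 426 to 108 and 103. Inhba, the gene of activin A, had a wide spread between replicates, with 1530 and 702 at 0 h and 3847 and 1943 at 6 h (1.38 ± 0.64, no call, limma adjusted p = 2.57e-06 in the blocked fit), although both 6 h arrays were above both 0 h arrays. Beside Bdnf, its receptor gene Ntrk2 rose from 3854 and 4103 to 5940 and 5986 (0.53 ± 0.05), and the sorting receptor gene Sorcs3 rose by 1.00. Neurotrophin and receptor genes were divided as a list, with 4 of 14 higher and 4 lower (median 0.05). Of the lower ones 2 reached 2-fold, and only rises are named here.

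In the extracellular matrix a few genes rose strongly. Acan, the gene of aggrecan, a proteoglycan of perineuronal nets, reached 398 and 553 at 6 h (3.29 ± 0.18), and the pentraxin gene Nptx2, whose product clusters AMPA receptors, from 262 and 400.0 to 3275 and 3827 (3.39 ± 0.18). Chst15 (1.75), a chondroitin sulfotransferase gene, rose and Chst12 (-1.50) fell. The matrix list as a whole had 7 of 27 higher and 5 lower. Among proteases and inhibitors (9 higher and 5 lower of 36) the plasminogen activator gene Plat (1.02), its inhibitor Serpinb2 (3.09) and Adamts1 (1.83), which cleaves proteoglycans, rose. The lower ones numbered 8 in the blocked fit and 3 without replicate 1 at 0 h. Serpinb2 was dim at 0 h, at 12.5 and 28.1.

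Effectors of synaptic plasticity were the list with the largest share of higher genes, 36 of 40, and it was drawn up from genes known to respond to activity. Its members show how far the late wave had separated from the early one. Arc, which drives AMPA receptor internalisation, was at 79.9 and 74.4 at 0 h, 1816 and 2069 after 1 h and 190.4 and 210.0 at 6 h, higher at 6 h than at 0 h (1.27) and lower than at 1 h (-3.09). Rem2, a small GTPase gene, was at 602 and 541 and then 3944 and 3304 (2.63). Sv2c, a vesicle glycoprotein gene, went from 26.3 and 40.4 to 389 and 319.8 (2.97). Lrrtm3 (-1.32) and Dclk1 (-0.25) were the members that fell, and other probe sets of both genes were called higher. Homer1, a scaffold gene with a short activity-induced transcript, is read by 6 probe sets, whose changes ran from 0.34 for the brightest to 4.23 for the next.

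Called glutamate receptor subunit genes were lower at 6 h. All 4 AMPA receptor subunit genes fell, Gria3 from 668 and 713 to 271 and 371 (-1.02 ± 0.12), with Gria4 (-0.84), Gria1 (-0.53) and Gria2 from 8360 and 8979 to 7241 and 7855 (-0.24 ± 0.05). With the auxiliary subunits, 4 of 20 were higher and 9 lower (median -0.24). The TARP gene Cacng2 (-0.71) fell, and the TARP gene Cacng3 (1.29) and Nptx1 (1.45) rose. Cacng2 went from 1579 and 1440 to 918 and 871 and Cacng3 from 156 and 212 to 439.7 and 436, so related auxiliaries moved in opposite directions. Among 10 NMDA, kainate and delta receptor genes 6 were lower and 0 higher, led by the delta receptor gene Grid1 (-0.95), which went from 725 and 759.8 to 341 and 376. The count of lower ones was 3 without replicate 2 at 0 h or without replicate 1 at 6 h. Of 7 metabotropic glutamate and GABA-B receptor genes 4 were lower and 1 higher. Grm5, a postsynaptic receptor gene, fell from 2798 and 2977 to 1703 and 1874 (-0.70 ± 0.06), and Grm4 fell by 1.06. Grm7, a presynaptic receptor gene, had 1213 and 1233 at 0 h and 369 and 403 at 6 h (-1.58). A dimmer probe set of Grm7 was called higher (1.64), as was a dimmer one of Gria4 (0.64), so for these 2 genes the direction depends on the probe set read.

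Receptor genes of inhibitory transmission showed few calls. Of 15 GABA-A and glycine receptor genes, Gabra4 rose from 1508 and 1522 to 3692 and 3386 (1.18 ± 0.08), and 2 were lower. In the blocked fit 4 of this list were higher. Of 19 genes of GABA synthesis, transport and interneuron markers 6 were higher (31.6%) and 2 lower (10.5%). The blocked fit had 9 higher and 4 lower. Gad1, an enzyme gene of GABA synthesis, rose from 5723 and 5984 to 7581 and 8387 (0.40). Both 6 h arrays of Gabra4 were more than 2-fold above either 0 h array.

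Receptors for peptides and amines moved singly. Of 24 peptide receptor genes 7 were higher and 3 lower. Without replicate 1 at 0 h 4 were higher, and in the blocked fit 5 were lower. Sstr2, a somatostatin receptor gene, rose from 504 and 494 to 2801 and 3076 (2.54 ± 0.09), Tacr3, the neurokinin B receptor gene, from 88.7 and 144 to 552 and 999 (2.64 ± 0.38), and Npy1r from 385 and 333 to 1256 and 947 (1.62). Ntsr1, a neurotensin receptor gene, fell from 1284 and 1457 to 342 and 589.5 (-1.53). The PACAP receptor gene Adcyap1r1 fell, from 2730 and 3389 to 995 and 1501 (-1.30), while the gene of its ligand rose. Among 29 receptor genes for amines, acetylcholine, opioids and cannabinoids 6 rose and 5 fell. Without replicate 2 at 0 h or replicate 1 at 6 h, 3 fell. The nicotinic subunit gene Chrna5 rose by 1.98 and the dopamine receptor gene Drd1 by 1.15, and Drd2 (-0.83) and the nociceptin receptor gene Oprl1 (-1.49) fell.

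Synaptic adhesion, scaffold and release genes were divided. Adhesion organisers had 11 higher (20.8%) and 14 lower (26.4%) of 53, and scaffold genes 9 (29.0%) and 8 (25.8%) of 31. Vesicle and SNARE genes had 13 higher (17.8%) and 13 lower (17.8%) of 73. Of all tested genes 16.7% were higher and 27.3% lower, and the adhesion shares were near these. Lower vesicle genes numbered 26 in the blocked fit and 8 without replicate 2 at 0 h, the latter also leaving 5 higher scaffold genes, and 9 adhesion genes were lower without replicate 1 at 0 h. Lgi1, a secreted organiser gene, rose from 1139 and 1372 to 2994 and 3420 (1.31), and the neuroligin gene Nlgn3 fell from 639.9 and 831 to 198 and 336 (-1.39). Dlg1 (1.34) rose and Mpp3 (-1.26) fell among scaffolds. Vamp1 (1.21), a vesicle SNARE gene, rose and the synapsin gene Syn3 (-0.87) fell among release genes.

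Ion channel families differed in direction. Of 60 potassium channel genes 15 were higher and 11 lower, with a median of -0.01. Without either replicate at 6 h, 7 were lower. Kcna1, a low-threshold channel gene, rose from 319 and 460.4 to 2718 and 3123 (2.89 ± 0.29), Kcnf1, a silent subunit gene, from 459.7 and 506 to 2639 and 2675 (2.44 ± 0.08), and Kcnj3, which encodes the G-protein-gated channel GIRK1, from 581 and 849 to 2802 and 2700 (1.95 ± 0.20). Kcna4, of the A-type current, rose by 1.96. In these 4 genes both 6 h arrays were above both 0 h arrays. The beta subunit gene Kcnab1 fell (-1.08).

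Among channels that carry calcium and sodium in, called changes of pore genes named here were falls. The pore genes of L-type calcium channels fell, Cacna1d from 732 and 735 to 144 and 184 (-2.02 ± 0.20, limma adjusted p = 6.71e-06) and Cacna1c from 1430 and 1323 to 581 and 707 (-1.04 ± 0.09). A second probe set of Cacna1c was called higher (0.33), and without probe sets that can match several transcripts Cacna1d was read by another, at -0.45 and no longer called. The N-type pore gene Cacna1b fell by 0.56. L-type channels are a main route of the calcium that signals to the nucleus, and both of these genes were lowest at 6 h among the 4 times. Over the 20 calcium channel genes 4 were higher and 6 lower, shares near those of all tested genes (16.7% and 27.3%). Of 11 sodium and HCN channel genes 5 were lower and 0 higher. Scn2a went from 5551 and 5270 to 3385 and 3651 (-0.67), Scn8a from 1586 and 1832 to 926 and 1196 (-0.67), and Hcn3 fell too (-1.04). Among chloride channels and cotransporters the anoctamin gene Ano4 (-1.53) and Slc12a5 (-0.46), the gene of the chloride extruder KCC2, fell, and Slc12a2, the gene of the chloride importer NKCC1, rose by 0.49.

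**Figure D4:**
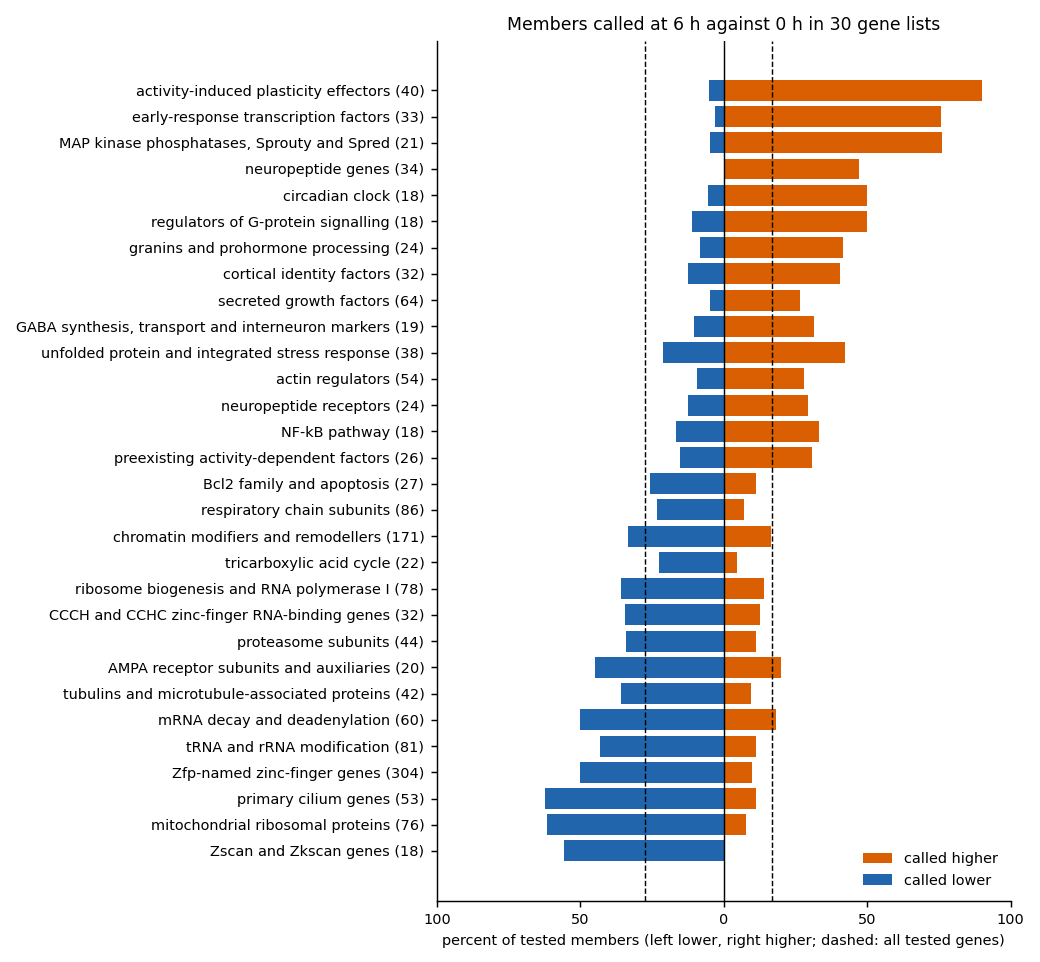
Share of tested members called higher (bars to the right) and lower (bars to the left) at 6 h against 0 h, in percent, for 30 gene lists, with the number of tested members beside each name. They are the 15 lists with the highest and the 15 with the lowest difference between the shares, among lists with at least 15 tested members. The dashed lines mark all 13915 tested genes, 16.7% higher and 27.3% lower, and the bars of the signal-limiting, clock and neuropeptide lists pass the right line while those of the cilium, mitochondrial ribosome and Zscan and Zkscan lists pass the left one.

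Cytoskeletal and guidance genes changed in part. Actin regulators had 15 higher and 5 lower of 54, with Vasp (1.31), a filament elongation factor gene, and Actn1 (1.16), an actin crosslinker gene, rising most. In the blocked fit 8 actin genes were lower, and 3 without either replicate at 0 h or without replicate 1 at 6 h. Tubulins and microtubule-associated proteins had 4 higher and 15 lower of 42, with 8 higher in the blocked fit. Tubg1, the gene of the nucleating gamma-tubulin, went from 355 and 392 to 115 and 158 (-1.33), Tubb3 from 11811 and 12472 to 7097 and 7751 (-0.75) and Dclk3 from 755 and 674 to 207 and 168 (-1.81). All 3 had separate groups. Of 64 guidance genes 10 were higher and 15 lower. In the blocked fit 16 were higher and 27 lower. Sema3e was flat to 3 h, at 51.3 and 88.3 at 0 h and 63.9 and 83.3 at 3 h, and reached 291 and 326 at 6 h (2.02 against 0 h). Slit2 rose by 1.50, and the semaphorin receptor genes Plxnc1 (-1.53) and Plxna2 (-1.02) fell.

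Glucose handling changed at its entry and exit points. Slc2a1, the gene of the transporter GLUT1, rose from 416 and 349.7 to 2436 and 3228 (2.84 ± 0.16), and Slc2a3, the neuronal transporter gene, from 5046 and 6290 to 11199 and 12438 (1.02 ± 0.09). The lactate transporter gene Slc16a1 (1.80), the hexokinase gene Hk2 (1.33) and Pdk3 (1.99), a gene of the kinase that inhibits pyruvate dehydrogenase, rose. Txnip, which lowers glucose uptake, fell from 3154 and 3527 to 863 and 1111 (-1.74 ± 0.25). In the list of 33 genes 10 were higher and 9 lower. The blocked fit had 17 higher, and without replicate 1 at 6 h 5 were lower. Respiratory chain genes had small changes, 6 higher and 20 lower of 86, from -0.74 to 0.73, with no call of 2-fold.

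The integrated stress response rose in its transcription factor arm. Of 38 genes 16 were higher, 7 by at least 2-fold, and 8 were lower. Without replicate 2 at 0 h or replicate 1 at 6 h, 5 were lower. Atf4 rose from 3795 and 4993 to 7799 and 8079 (0.82), and Trib3 (2.44), Chac1 (2.51), the folate enzyme gene Mthfd2 (2.37), Ppp1r15a (1.95), Sesn2 (1.87) and Atf5 (1.16), genes known as targets of ATF4, rose with it. Of the chaperone genes of the endoplasmic reticulum in this list, Hspa5, the gene of BiP, had 8375 and 7881 at 0 h and 8542 and 9414 at 6 h (0.10, no call), and Dnajb11 (-0.51) and Calr (-0.29) fell. The amino acid transporter genes Slc7a8 (1.60), Slc7a1 (1.12) and Slc7a5 (0.87) rose, and Slc43a2 (-1.50) fell.

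Aminoacyl-tRNA synthetases split by the compartment they serve. Of 36 tested, 11 were higher and 15 lower. Among the 16 whose symbols end in 2, which serve the mitochondrion, 10 were lower and 2 higher, and their median was -0.84. Among the other 20, 9 were higher and 5 lower (median 0.21). Eprs rose from 3569 and 3900 to 7618 and 7609 (0.98 ± 0.06), with Cars (0.88) and Iars (0.85), while Iars2 fell from 585 and 734 to 268 and 318 (-1.07 ± 0.12), with Pars2 (-1.16) and Ears2 (-1.11). Wars was a cytosolic member that fell (-0.93). This split by name was made after the values were seen and is a description.

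Genes of the mitochondrial ribosome fell as a family while those of the cytosolic ribosome stayed near 0. Of 76 mitochondrial ribosomal protein genes 47 were lower (61.8%) and 6 higher (7.89%), with a median of -0.32. Mrpl10 went from 1495 and 1489 to 499 and 671 (-1.30 ± 0.12) and Mrps16 from 1667 and 1666 to 635 and 755 (-1.21 ± 0.09). Mrpl54, from 668 and 647 to 1129 and 1084 (0.79), was the largest rise. The falls were mostly modest, 2 of them reaching 2-fold. Of 47 cytosolic ribosomal protein genes 5 were higher and 3 lower (median 0.01). In the blocked fit 8 were higher and 5 lower, and 3 were higher without replicate 2 at 0 h or replicate 1 at 6 h. Per array, the median of the mitochondrial list relative to 0 h was -0.33 and -0.26 in the 2 arrays at 6 h, -0.15 and -0.18 after 3 h and -0.04 and -0.03 at 1 h, and that of the cytosolic list was -0.01 and 0.06 at 6 h.

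Primary cilium genes had the most negative median of the lists with 20 or more tested members. Of 53 tested, 33 were lower (62.3%), 14 of them by at least 2-fold, and 6 were higher (11.3%), with a median of -0.64. The cilium is the antenna through which neurons receive hedgehog and some peptide signals, and its building blocks are transported by the IFT complexes and the BBSome. Of BBSome genes, Bbs2 fell from 273 and 337 to 54.3 and 83.2 (-1.93 ± 0.26) and Ttc8 from 716 and 701 to 189 and 203 (-1.73 ± 0.12), and Bbs7 fell (-1.26). Of IFT genes, Ift81 fell from 1162 and 1394 to 433 and 429 (-1.48 ± 0.10), with Ift122 (-1.21), Ift140 (-1.18) and Ift88 (-1.12). Genes of the transition zone and of the basal body, Cc2d2a (-1.27), Cep290 (-1.23) and Cep164 (-1.34), fell as well. Bbs5 was an exception within the BBSome, rising from 788 and 872 to 1384 and 1462 (0.79), and Ift57 (0.70), Ift20 (0.55) and the hedgehog effectors Gli2 (0.58) and Gli3 (0.56) rose. The per-array median of the list was -0.03 and 0.05 at 1 h, -0.40 and -0.28 after 3 h and -0.68 and -0.56 at 6 h.

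Zinc-finger genes had the most lower members by number, in the list with the most tested members of those examined. By share other lists were ahead, among them the cilium genes (62.3%) and the mitochondrial ribosomal protein genes (61.8%). Of 304 genes named Zfp, 152 were lower, 46 by at least 2-fold, and 30 higher (9.87%), with a median of -0.35. Many genes of this name encode DNA-binding repressors of the KRAB class. Zfp82 had 387 and 388 at 0 h, 42.5 and 59.0 after 3 h and 68.1 and 84.7 at 6 h (-2.11 ± 0.22 at 6 h). Of 18 Zscan and Zkscan genes, which share the SCAN domain, 10 were lower and 0 higher (median -0.50). Zkscan4 had 464 and 407 at 0 h, 29.2 and 53.7 after 3 h and 102 and 115 at 6 h (-1.84 ± 0.19), and Zkscan16 had 471 and 458, 138 and 142 and 88.0 and 101 (-2.11 ± 0.19). Zfp82 and Zkscan4 were lowest at 3 h and had partly returned at 6 h. Zfp516 (1.75) and Zfp335 (1.41) rose.

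**Figure D5:**
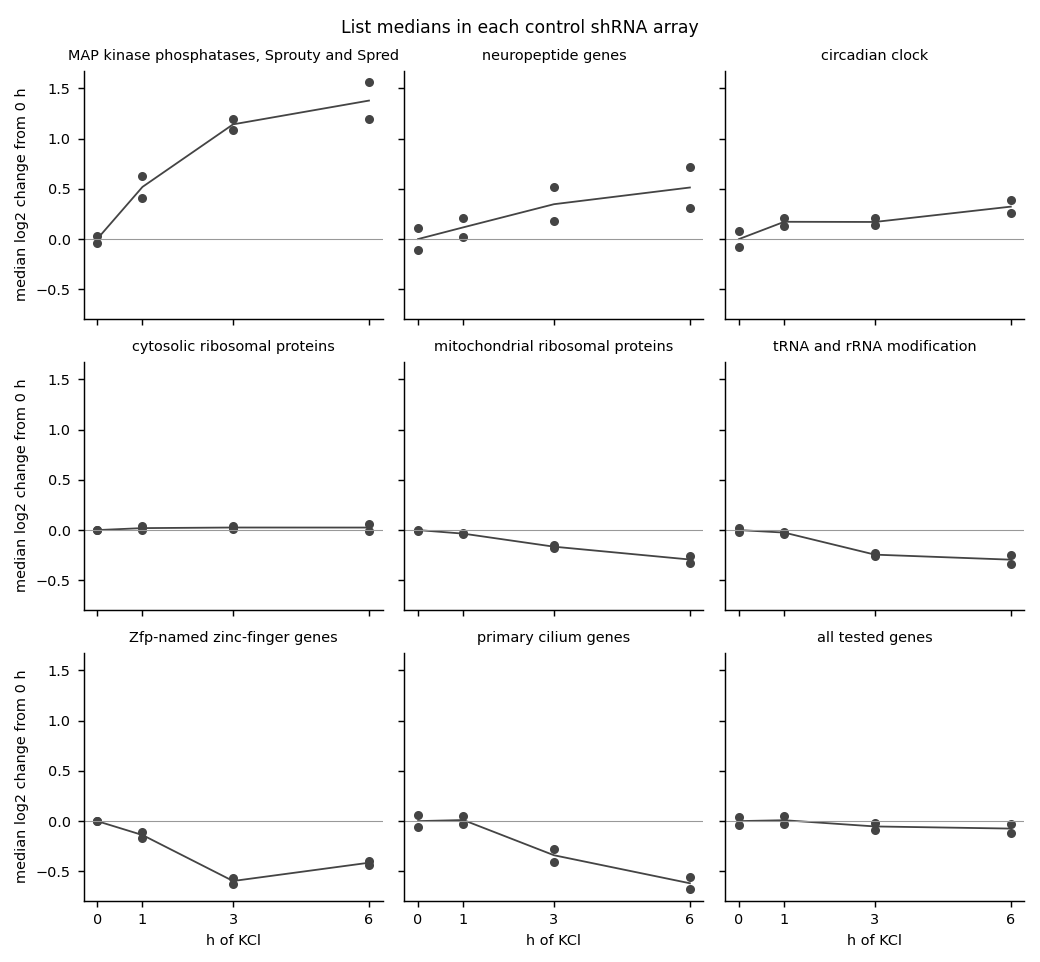
Median log2 change of the tested members of 8 gene lists and of all 13915 tested genes (vertical axis) relative to the mean of the 2 arrays at 0 h, in each array of control shRNA neurons at 0, 1, 3 and 6 h of KCl (horizontal axis), from deposited intensities plus 16. Points are arrays and lines join their means. The Zfp-named list is lowest at 3 h, and the cilium and mitochondrial ribosome lists are lowest at 6 h.

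Genes that process and destroy RNA were mostly lower where they were called. The tRNA and rRNA modification list also holds relatives by name with other substrates, such as Mettl3 and some other Mettl and Alkbh genes. Of its 81 tested genes 35 were lower (43.2%) and 9 higher (11.1%), so these counts are not of tRNA and rRNA modification alone. The pseudouridine synthase gene Pus7l fell from 375 and 388 to 87.5 and 76.3 (-2.01 ± 0.14), and Trmt1l (-1.92), Thumpd3 (-1.55) and Mettl3 (-1.05), the writer of m6A on mRNA, fell as well. Of 60 genes of mRNA decay and deadenylation 30 were lower and 11 higher. The decapping gene Dcp1b fell from 326 and 284 to 73.1 and 97.6 (-1.65 ± 0.13) and the deadenylase gene Parn from 955 and 1125 to 419.6 and 449.6 (-1.17 ± 0.09). The exosome genes Exosc1 (-1.29), Exosc4 (-0.94) and Exosc5 (-0.87) fell too. Zc3h12c (2.58), an mRNA-binding endonuclease gene, Btg2 (2.35), whose product recruits the deadenylase, and Zfp36l2 (0.63), a binder of AU-rich elements, were among those that rose.

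The general transcription apparatus and chromatin genes were divided, with single large rises. Of 101 polymerase II, general factor and Mediator genes 22 were higher and 36 lower. The elongation factor gene Ell2 (2.52) and Aff1 (1.70) rose, and Polr2a, the gene of the largest polymerase subunit, fell from 2085 and 1759 to 897 and 958 (-1.01). Of 171 chromatin genes 28 were higher (16.4%) and 57 lower (33.3%), against 16.7% and 27.3% of all tested genes. The class IIa deacetylase genes, whose products leave the nucleus on calcium signals, rose, Hdac9 from 569 and 560.2 to 4551 and 4104 (2.90 ± 0.12), Hdac5 by 1.26 and Hdac4 by 1.02. Hdac9 was at 1442 and 1287 at 3 h, so most of its rise came after 3 h. Tet1 (-1.28), Ezh1 (-1.34) and Smarcal1 (-1.85) fell. Splicing factors had 23 higher (17.7%) and 41 lower (31.5%) of 130, with Mbnl2 rising from 1326 and 1410 to 4325 and 4219 (1.60).

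Protein turnover, cell cycle and survival genes changed in both directions. Proteasome genes had 5 higher and 15 lower of 44, and the assembly chaperone genes Psmg1 (-0.92), Psmg2 (-1.50) and Psmg3 (-0.89) fell. Of 278 ubiquitin ligase adaptor and deubiquitinase genes 63 were higher (22.7%) and 93 lower (33.5%). By at least 2-fold 14 of these were higher and 11 lower. The ubiquitin ligase gene Trim36 rose from 237 and 214 to 1613 and 1576 (2.79 ± 0.11). Cdkn1a, the gene of the cell cycle inhibitor p21, rose from 1171 and 1028 to 4111 and 4629 (1.95 ± 0.09), with Cdkn2b (1.16) and Cdkn1b (0.89), and Cdk4 (-0.70) and the replication gene Mcm6 (-0.67) fell. Of 32 p53 target and DNA damage genes 9 were higher, 5 by at least 2-fold, and 13 lower, 2 by at least 2-fold. The excision repair gene Xpc fell from 421 and 498 to 97.4 and 116 (-1.94 ± 0.11), and Ddb2 (-1.05), Atr (-0.82) and Atm (-0.75), all of damage recognition or signalling, fell too. In the Bcl-2 family, of 27 tested genes 3 were higher (11.1%) and 7 lower (25.9%), with 6 higher in the blocked fit. Of all tested genes 16.7% were higher and 27.3% lower. Pmaip1 (2.03), a pro-death member, rose, and the pro-death genes Bid (-1.96) and Bbc3 (-0.94) and the protective Bcl2l1 (-0.41) fell. Of the higher genes of this list 2 reached 2-fold, and its largest upward change, 3.12, was of a gene not named here.

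The 6 h state was also set against the 2 earlier times, with the same control shRNA. Between 3 and 6 h, 1109 genes (7.97%) were higher and 1252 (9.00%) lower, and between 1 and 6 h 2052 (14.7%) were higher and 3238 (23.3%) lower. The blocked fit had 2198 higher and 2528 lower genes between 3 and 6 h. Without replicate 1 at 6 h that comparison had 693 and 648, and without replicate 2 at 6 h 681 and 1027. These comparisons share the 6 h arrays with each other and with 6 h against 0 h, so their counts are not independent.

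Late genes were those with a further step after 3 h. Hspb3 was at 622 and 603 at 3 h and rose by 1.96 to 6 h (limma adjusted p = 2.45e-05), Sema3e by 1.92, Hdac9 by 1.63, Nppc by 1.61, Pnoc by 1.38, Mlf1 by 1.13 and Pcsk1 by 1.01. Early genes had passed their peak. Junb (-0.56) and Fosb (-1.05) fell between 3 and 6 h, and Npas4 (-0.95), Egr4 (-1.30) and Nr4a1 (-1.10) were lower at 6 h than at 1 h. Fos was lower at 6 h than at 1 h (-0.31, a call lost without either 6 h array, at -0.35 and -0.26) and had no call against 3 h (-0.18). Of the largest falls, Rars2 (-1.34) and Rps6ka5 (-0.78) fell further after 3 h, and Zfp759 was near its 3 h level (-0.15). Among Zfp-named genes 87 of 304 were higher at 6 h than at 3 h and 9 lower, whereas among cilium genes 6 were higher and 14 lower, and among mitochondrial ribosomal genes 4 and 18.

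The 6 h change was compared with that of neurons carrying the c-Fos shRNA, which have their own 0 h and 6 h arrays. The difference of the 2 changes passed the test in 172 of 13915 genes (1.24%), 63 of them (0.453%) with a more positive and 109 (0.783%) with a more negative change under c-Fos shRNA. That count was 1582 in the blocked fit, 40 and 94 without replicate 1 or 2 at 0 h and 55 and 82 without replicate 1 or 2 at 6 h, so it rests on every one of the 4 arrays. Vgf rose by 3.07 with c-Fos shRNA, against 4.93 with control shRNA (difference -1.86 ± 0.09, limma adjusted p = 8.68e-07). Trim36 (1.43 against 2.79) and Mlf1 (2.61 against 3.61) differed as well, and these 3 kept the call whichever of the 4 control arrays was left out. Bdnf (4.84 against 5.71, limma adjusted p of the difference 0.237, and 0.00568 in the blocked fit), Crem (4.06 against 4.10, 0.961) and Pcsk1 (5.40 against 5.00, 0.439) had no call for a difference, which does not show that their changes are equal.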

How the data were processed

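The deposited values are linear single-colour intensities of probe sets, 1 array per sample; Affymetrix array processing was used by the authors per the series' design text, and for the summarization software and the scaling nothing is given in the sources used here. Medians of the arrays lay between 104.75 and 118.56. Control spots of the array (64 of 45101 probe sets) were left out, and 34945 probe sets named 1 gene in the platform annotation, 932 several and 9160 none; only the first kind entered, and 34741 of these matched RefSeq. Each of 18193 genes was read by its brightest probe set, taken over the mean of all arrays, and 13915 genes with a mean above the 30th percentile (log2 of 5.79) were tested. Values were log2(intensity + 16), quantile-normalized, and fitted in limma 3.58.1 (R 4.3.3) with 8 group means over all 16 arrays, 8 residual degrees of freedom, an intensity trend and Benjamini-Hochberg adjustment; a fold change on this scale understates the change of dim genes. On log2 values simulated for 6 h against 0 h with 13915 genes, 87% of changes of 1 and 94% of changes of 2 were recovered, with 9 false calls. The simulated noise was independent between arrays and no normalization was simulated. These shares therefore do not cover the deviations that arrays of the same replicate number have in common.

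Arrays with the same replicate number deviated together in 28 of 28 pairs of groups (correlation 0.36 to 0.60, median 0.48, and 0.43 between 0 h and 6 h); the pairing comes from the data, since the labels give only the numbers. The number of arrays limits the precision. Members and gene lists were chosen with earlier results of these data known, and so were the motifs. Named genes are the 20 largest called rises and 15 largest called falls with separate groups, then in each list the largest called changes and members named for their role; genes whose call depended on a single array were mostly left out after their values were seen. Intervals of promoter shares are Clopper-Pearson intervals and cover counting error only. Alternatives were other normalizations, pseudocounts, filters, probe set rules and array sets, a replicate block, no trend, each array left out, and a shorter promoter window.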

Additional observations from a re-analysis of the deposited data

Results flagged for a closer look

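In 25 of the genes named above the 6 h change differed between the c-Fos shRNA and the control shRNA neurons by the test of that difference (limma, adjusted p under 0.05, each group of 2 arrays), and in all 25 the change was smaller with the c-Fos shRNA. The genes were named largely for the size of their change with control shRNA, and that change is part of the difference. This choice favours a smaller change with c-Fos shRNA, so the shared direction is no independent evidence. Of all 172 genes that passed, 63 had a more positive and 109 a more negative change with c-Fos shRNA. The values are the change with c-Fos shRNA minus the change with control shRNA on the log2 scale. Among peptide and secretion genes the difference was -1.86 for Vgf and -0.75 for Pam. Among transcription factor and chromatin genes it was -1.75 for Atf3, -1.08 for Fos, which the shRNA targets, -0.57 for Nr4a3, -0.82 for Hdac9 and -0.67 for Hdac5. The signal inhibitor genes Dusp1 (-0.66), Dusp4 (-0.77), Dusp6 (-0.83) and Rgs2 (-0.48) rose less as well. Among synaptic, matrix and channel genes the difference was -1.61 for Sv2c, -1.50 for Nptx2, -1.26 for Grasp, -1.24 for Chst15, -0.71 for Kcnf1 and -0.50 for Slc12a2. Genes of metabolism and stress had -1.87 for Trib3, -1.12 for Slc2a1 and -1.03 for Hspb3, and Trim36 (-1.36), Mlf1 (-1.0) and Cdkn1a (-0.98) made up the rest of the rises. The falls of Lrrtm3 (0.98) and Tubb3 (0.47) were shallower with the c-Fos shRNA, so their differences are positive. Without replicate 1 at 0 h 15 of the 25 lost the call, without replicate 2 at 0 h 6, without replicate 1 at 6 h 14 and without replicate 2 at 6 h 10. These were control shRNA arrays. The c-Fos shRNA arrays, which also enter the difference, were not left out, so dependence on them was not tested. Vgf, Fos, Grasp, Dusp6, Trim36, Mlf1, Cdkn1a, Lrrtm3 and Tubb3 kept the call whichever control shRNA array was left out. The other 16 kept their direction, with limma adjusted p between 0.0516 and 0.134 where the call was lost.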

How the results depend on the processing

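Genes higher at 6 h against 0 h numbered 1953 to 3025 and lower ones 3103 to 4898 over the alternatives with all 4 arrays, and 1885 to 2076 and 2984 to 3515 when 1 of the 4 arrays was left out. By at least 2-fold the ranges without 1 array were 616 to 650 higher and 673 to 934 lower, and with the mean of all probe sets of a gene 506 were lower. With the replicate number as a block (the pairing of arrays), 3025 genes were higher and 4898 lower at 6 h against 0 h, 2198 and 2528 at 6 h against 3 h, and 1582 genes differed between the shRNAs, or 82 with the mean of all probe sets. Beyond the genes named above with it, the block changed no call of a named gene. Without 1 array, 681 to 1069 genes were higher and 648 to 1205 lower at 6 h against 3 h, 1622 to 2050 and 2430 to 3189 at 6 h against 1 h, and 40 to 94 differed between the shRNAs. Of 263 called named genes, 250 kept direction and call under all 16 alternatives, a count that does not measure stability, since genes whose call hung on 1 array were mostly left out once seen. With the mean of all probe sets Dclk1 (0.32) and Grm7 (0.10) turned, and Arntl (0.33), Clock (0.08), Gria4 (-0.15), Ift57 (0.24), Npy1r (0.85), Ppp3cc (-0.41), Slc1a3 (-0.08) and Vamp1 (0.51) lost their calls. Of 110 list counts of at least 5, 51 moved by over 1.5 times under an alternative. With the 150 bases before the start only, TGACGTCA was found for 6.05% of genes higher by at least 2-fold. The share was 1.97% of genes lower by at least 2-fold and 2.62% of all tested genes with a promoter. The causes were not tested. Dim genes carry changes that the added 16 understates, and 2 arrays a group limit what can be called.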
